A study of Mus musculus with 6 samples.

Results

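The gene desert on mouse chromosome 5 served as the control region of a chromosome conformation capture carbon copy (5C) experiment on the immunoglobulin heavy chain (Igh) locus. Its members were all pairs of 1 forward and 1 reverse primer named for the desert, 24 forward by 25 reverse primers or 600 pairs of the 18768 possible among all primers of the series. The primers anneal to HindIII restriction fragments, which alternate between forward and reverse, across mm9 chr5:133174214-133472010, a span of 297.797 kb. Each fragment is named here by its primer's side and number (FOR 30, REV 31), as in the deposited primer names. The series description states 525 potential cis interactions for these 49 primers, whereas the primer names give 600.

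In 5C, chromatin is fixed, cut and ligated, and the ligation junctions are copied with primers that anneal on either side of each junction. The number of reads of a primer pair therefore reflects how often 2 fragments were joined, and also how well both primers work. Fragments close together on a chromosome are joined more often than distant ones, since the polymer keeps them near each other. A gene desert, a stretch without genes, is commonly included in such designs as a reference for this decay and for scaling libraries against each other.

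The comparison was among 3 cell types with 2 biological replicates each, according to the series text. Pro-B cells were Rag2-deficient, which stops V(D)J recombination, came from bone marrow and had been expanded for 4 days in interleukin 7. Murine embryonic fibroblasts (MEF) were taken directly from culture. Resting B cells were CD43- splenic B cells, isolated with magnetic beads straight from the spleen. Strain, age, sex and whether animals were pooled are not given in the labels. Cell type cannot be told apart from growth in culture, and RNA markers of the cell types were not measured by this assay. The libraries held 20580457 to 24191175 valid read pairs, of which 890105 to 1401539 fell on desert pairs. No molecular identifiers are recorded, so intervals and zero limits cover counting error only, and p-values measure the spread between these libraries. Pro-B replicate 2 stood apart from the other 5 libraries, and pro-B replicate 1 was closer to MEF replicate 2 than to its own replicate. Results that rest on single libraries are given with and without them.

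Of the 600 desert pairs, 457 had a read in at least 1 library, 187 had reads in all 6 and 143 had none in any. Pro-B replicates 1 and 2 had reads on 348 and 326 pairs, MEF on 264 and 256, and resting B cells on 269 and 287. These shares, 42.7% to 58.0% of the desert, lay below those of Igh pairs in the same range of separation, of which 93.0% to 98.4% had reads in each library. A count of 0 allows 3 reads, which is at most 0.000337% of a library's desert reads.

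The pairs without reads followed the primers. After the values were seen, primers were split at a median of 1000 desert reads over the 6 libraries, a gap that separated 21 low primers, with medians of 0 to 63 reads, from 28 well-read primers, with medians of 1992 to 446834. All 8 low forward primers (3, 5, 8, 11, 16, 19, 21 and 23) lay at the low-coordinate end of the desert, up to position 133272479. The 13 low reverse primers were 1, 4 and 6 at that end, and 49, 51, 53, 56, 58, 60, 63, 66, 69 and 72 at the other. Well-read forward primers ran from FOR 27 to FOR 70 and well-read reverse primers from REV 10 to REV 41. Fragment length did not separate them: low fragments had a median of 4804 bp (758 to 12972) and well-read fragments one of 4345 bp (1119 to 12953).

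**Figure D1:**
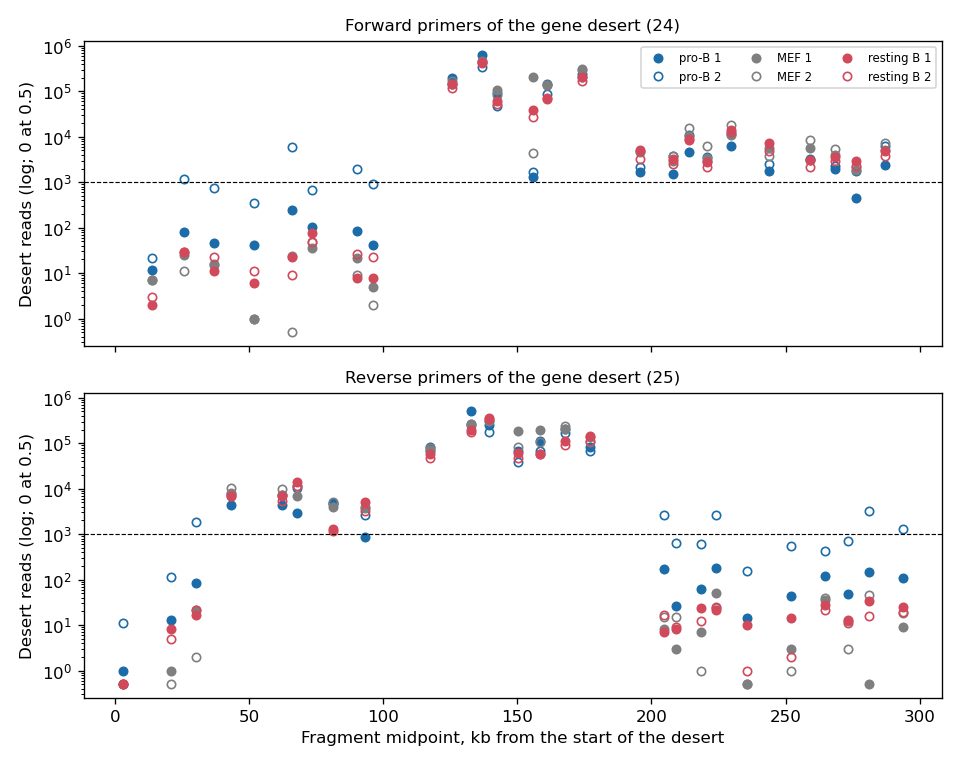
Reads of each desert primer with all desert partners (vertical axis, log scale, 0 drawn at 0.5) against its fragment's midpoint in kb from the start of the desert, forward primers above and reverse primers below; filled and open circles are replicates 1 and 2 of each cell type, and the dashed line marks 1000 reads. The 8 forward primers at the left and the 3 reverse primers at the left and 10 at the right lie mostly below the line, and open blue circles, pro-B replicate 2, lie highest among them.

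The same primers were also weak with fragments on another chromosome, a measure the split did not use. The median number of reads with Igh fragments was 4 to 597 for the low primers and 951.5 to 369526 for the well-read ones, so the ranges did not overlap. Across the 49 primers, log2 reads with the desert and with the Igh locus correlated with Pearson's r of 0.80 to 0.92 per library, as a description of primers that share a library. Among the 28 well-read primers alone r was 0.52 to 0.72. Among the 225 Igh primers, 2 had a median under 1000 reads with Igh partners. Each Igh primer has 112 or 113 possible Igh partners, and their median was 102486 reads. The same cut is thus not on a like scale for the 2 regions.

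The 192 pairs of 2 well-read primers held 97.2% of the desert reads of pro-B replicate 2 and 99.9% to 99.98% of those of the other 5 libraries. All 192 had reads in both replicates of MEF and of resting B cells, and 170 did in pro-B cells. The 408 pairs with a low primer had 1561 reads in pro-B replicate 1 and 24711 in pro-B replicate 2. In MEF they had 276 and 254 reads, and in resting B cells 347 and 317. Of the 24711 reads in pro-B replicate 2, 80.6% joined fragments under 10 kb apart, and pairs of this kind held 2.78% of that library's desert reads. FOR 16, between REV 14 and REV 17, had 5837 desert reads there, against 249 in pro-B replicate 1 and 0 to 24 in the other libraries.

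The 3 forward primers with the most desert reads by median were FOR 30 (446834), FOR 39 (223838) and FOR 27 (147333). Those with the fewest were FOR 23 (15.5), FOR 11 (8.5) and FOR 3 (7). The reverse primers with the most were REV 31 (309138), REV 29 (256667) and REV 38 (188410). REV 4 (6.5), REV 58 (5.5) and REV 1 (0) had the fewest. No primer was without a read in every library, since REV 1 had 1 and 11 reads in the pro-B libraries and 0 elsewhere. The most read fragments of both sides lie in the middle of the desert, from FOR 27 to REV 41, where forward and reverse well-read primers are neighbours.

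Reads were concentrated on few pairs. The top 10 pairs took 82.4% to 92.3% of a library's desert reads, and pairs under 25 kb apart held 89.4% to 95.7%. Of the 31 pairs of adjacent fragments, only 9 had 2 well-read primers, and of the 102 pairs under 25 kb only 30 did. Separation and primer are therefore mixed in these counts.

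The pair with the highest mean share of desert reads was FOR 30 (chr5:133308827-133313224) with REV 31 (chr5:133313225-133314343), adjacent fragments with midpoints 2.76 kb apart. It had 213884 and 156708 reads in the pro-B libraries, 246198 and 258398 in the MEF and 285084 and 312779 in the resting B libraries, a mean of 22.5% of desert reads. In unscaled reads pro-B libraries were lowest and resting B libraries highest. After TMM scaling the groups overlapped, with pro-B replicate 1 at 12206 CPM and MEF replicate 2 at 9427.5 CPM. FOR 30 with REV 29 (chr5:133305259-133308826), its neighbour on the other side, had 392359 and 173255 reads in the pro-B libraries, 184814 and 169328 in the MEF and 121454 and 116385 in the resting B libraries, a mean of 16.8%. Here resting B libraries were lowest and pro-B replicate 1 alone was far above the rest. After scaling too, both resting B libraries were lowest for this pair.

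Next came FOR 39 (chr5:133346648-133349660) with REV 38 (chr5:133337167-133346647), with 157457 and 135928 reads in the pro-B libraries, 164889 and 195510 in the MEF and 85824 and 70110 in the resting B libraries, a mean of 11.8%. FOR 39 with REV 41 (chr5:133350057-133352420) had 78225 and 57702, 119863 and 90113, and 109410 and 90004 reads in the same order, a mean of 8.16%. Resting B libraries were lowest for FOR 39 with REV 38, in reads and after TMM scaling. For FOR 39 with REV 41 pro-B libraries were lowest in unscaled reads, and the groups overlapped after scaling. The fifth pair, FOR 27 (chr5:133295558-133304564) with REV 29, had a mean of 6.46%, with 99578 and 71504, 64111 and 78477, and 65513 and 52489 reads, and its groups overlapped in reads. After TMM scaling both resting B libraries were lowest, at 2745.8 and 2429.4 CPM, with MEF replicate 2 next at 2863.2 CPM.

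The ratio of 2 partners of 1 fragment does not depend on library scaling. For FOR 30, reads with REV 29 over reads with REV 31 were 1.83 and 1.11 in the pro-B libraries, 0.751 and 0.655 in the MEF and 0.426 and 0.372 in the resting B libraries. For FOR 32, the ratio of REV 33 to REV 31 was 1.03 and 1.00, 0.544 and 0.613, and 0.317 and 0.295. For FOR 39, the ratio of REV 38 to REV 41 was 2.01 and 2.36, 1.38 and 2.17, and 0.784 and 0.779. The cell types did not overlap in the first and second of these ratios, and resting B cells lay below both others in all 3. FOR 34 and FOR 36 differed from these: for FOR 34, the ratio of REV 33 to REV 35 was 1.29 and 1.01, 1.29 and 1.66, and 3.00 and 2.25, highest in resting B cells. For FOR 36, the ratio of REV 35 to REV 38 was 2.95 and 2.67, 5.06 and 4.31, and 4.39 and 5.11, with resting B cells and MEF overlapping above pro-B cells. Which partner is on top sets the direction of a ratio. For FOR 27, reads with REV 26 over those with REV 29 were 0.734 and 0.770, 0.840 and 0.747, and 0.665 and 0.686. Resting B cells lay below both others here too, while pro-B cells and MEF overlapped. These fragments were singled out after their values were seen, and the ratios are given without a test.

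Not every library was closest to its own replicate. Over the 600 pairs, Pearson's r of log2(reads + 1) between replicates was 0.84 for pro-B, 0.98 for MEF and 0.98 for resting B libraries, as a description over pairs that share primers. Pro-B replicate 1 correlated more closely with MEF replicate 2 (0.94) than with its own replicate. Over the 192 well-read pairs the values between replicates were 0.85, 0.87 and 0.98, and r was 0.95 between pro-B replicate 1 and MEF replicate 2. MEF replicate 1 correlated at 0.89 with resting B replicate 1, above its 0.87 with MEF replicate 2. Without the pairs of FOR 34, MEF replicates correlated at 0.96 and each was the other's closest library, while pro-B replicate 1 was still closest to MEF replicate 2 (0.94).

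Mean r within cell types exceeded that between them by 0.052 over the 600 pairs, with a one-sided exact permutation p of 0.0667, the smallest that 15 partitions of 6 libraries allow. Over the 192 well-read pairs the difference was 0.104. The median absolute log2 ratio of read shares over well-read pairs was 0.36 between the resting B libraries, 0.68 between the MEF libraries and 1.15 between the pro-B libraries. Replicate counts differed by more than sampling noise, with a chi-square per degree of freedom of 45.6 for resting B cells, 728 for MEF and 239 for pro-B cells, so each library counted as 1 replicate.

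**Figure D2:**
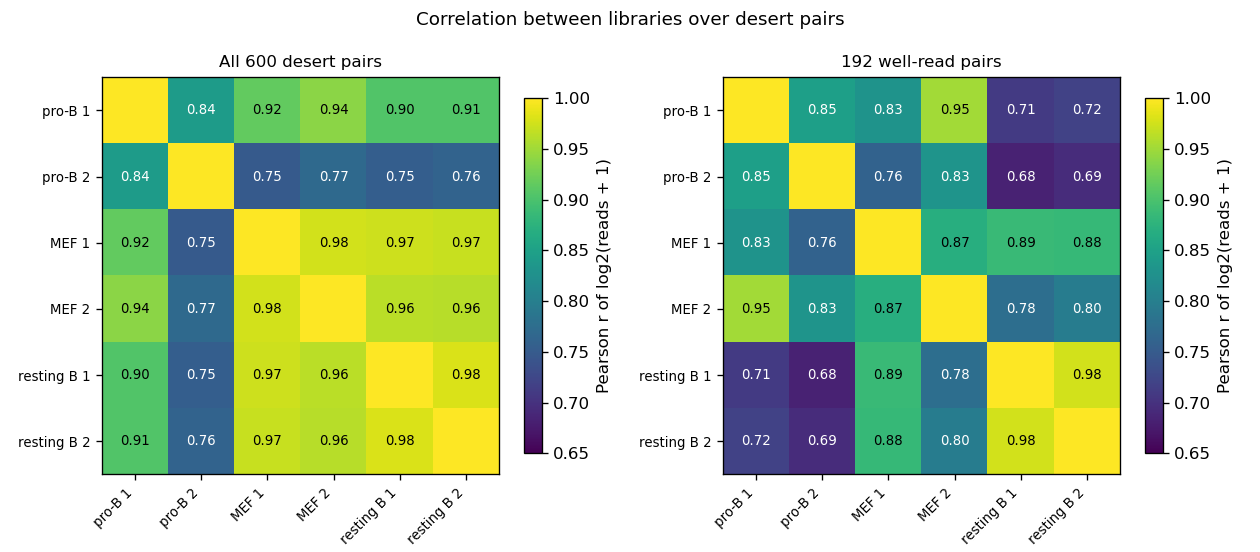
Pearson's r of log2(reads + 1) for each pair of libraries, over all 600 desert pairs (left) and over the 192 pairs of 2 well-read primers (right); colour and number give r. Pro-B replicate 2 has the lowest values over all pairs, and over well-read pairs pro-B replicate 1 is closest to MEF replicate 2 at 0.95.

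FOR 34 (chr5:133329497-133330895) was, among well-read fragments, the one whose desert reads differed most between the replicates of a cell type. It had 1291 and 1695 desert reads in the pro-B libraries, 207076 and 4380 in the MEF and 39481 and 27407 in the resting B libraries. MEF replicate 1 was far above MEF replicate 2, where FOR 34 held 0.356% of desert reads against 14.8%. Its reads with Igh fragments were also lower in MEF replicate 2 than in MEF replicate 1, although their order over all libraries differed, at 91 and 423 in the pro-B libraries, 2641 and 222 in the MEF and 3037 and 3605 in the resting B libraries. Correlations above and pair calls below are therefore also given without its pairs.

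Desert reads made up 6.08% (95% Wilson interval 6.07 to 6.09) and 4.10% (4.10 to 4.11) of cis reads in pro-B replicates 1 and 2. In MEF the shares were 5.97% and 5.49%, and in resting B cells 4.97% and 4.64%, with intervals within 0.01 of each value. The means were 5.09% ± 1.40 (SD, n = 2) in the pro-B libraries, 5.73% ± 0.34 in the MEF and 4.80% ± 0.24 in resting B cells. The pro-B libraries lay on either side of all others, and the 3 cell types did not differ beyond that spread (two-sided exact permutation of 15 partitions, p = 0.60, where the smallest p is 0.0667). Both MEF libraries lay above both resting B libraries (exact permutation, p = 0.333, the smallest that 2 against 2 allow). The sign of pro-B minus MEF, -0.636 points, rested on pro-B replicate 2: without it the difference was 0.350, and without pro-B replicate 1 it was -1.62. Resting B minus pro-B, -0.288 points, became 0.699 without pro-B replicate 1. Without the 10 most read pairs, the shares were 0.667% ± 0.015, 1.10% ± 0.11 and 0.826% ± 0.120, the groups did not overlap and p was 0.0667 by the same exact permutation test. With pairs over 20 kb only, the shares were 0.885% ± 0.097, 1.66% ± 0.37 and 1.62% ± 0.36 (exact permutation, p = 0.267). Pro-B cells had the lowest share in both settings, while MEF and resting B cells overlapped in the second.

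The question put to a control region is how contacts fall with separation and whether that fall is shared by cell types. Among well-read pairs, the 13 under 10 kb had median counts of 36005 to 88002 reads per library, and the 17 at 10 to 25 kb had medians of 1661 to 2520. From 25 to 50 kb (24 pairs) medians were 487.5 to 1565.5 reads, and from 50 to 100 kb (54 pairs) 243.5 to 592. From 100 to 200 kb (72 pairs) they were 109 to 309.5, and the 12 pairs over 200 kb had 122 to 383. Reads thus fell steeply within the first 25 kb and little beyond 100 kb.

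FOR 30 shows this profile for 1 fragment. In MEF replicate 1 it had 184814 reads with REV 29 and 246198 with REV 31 on either side, 7179 with REV 33 at 13.3 kb and 2294 with REV 38 at 30.9 kb. It had 628 with REV 17 at 68.9 kb on the other side, and 550 with REV 10 at 93.4 kb. The fall was not smooth even among well-read partners: REV 22 at 43.5 kb had 409 reads and REV 20 at 55.5 kb had 366, below the more distant REV 17 and REV 10. Partners with low primers departed further: REV 49, 67.7 kb away, had 0 reads with FOR 30 in MEF replicate 1, while REV 56 at 87.4 kb had 36 reads.

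**Figure D3:**
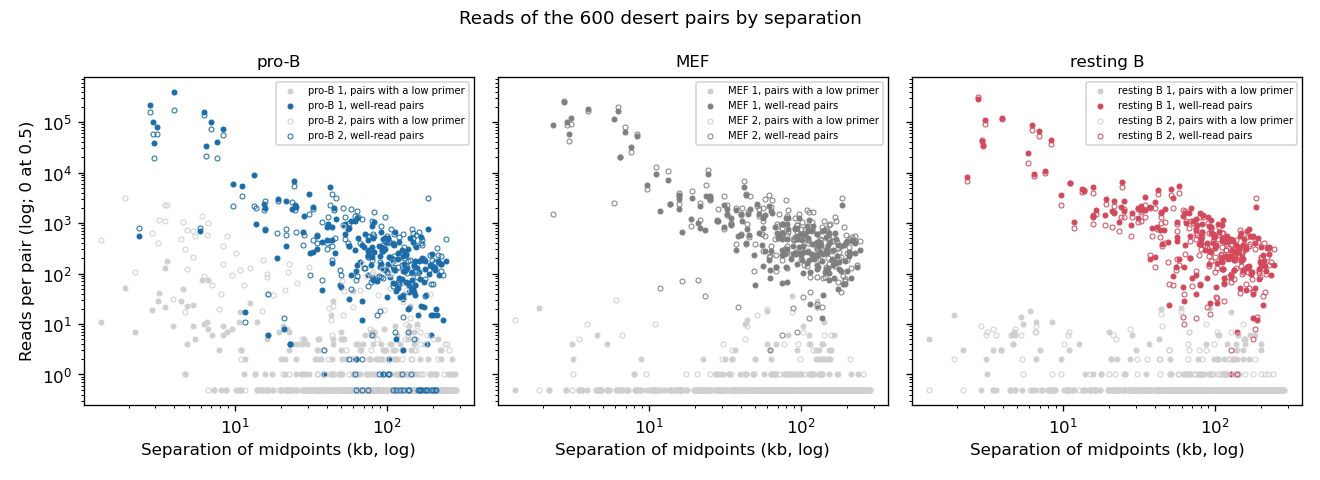
Reads per desert pair (log scale, 0 drawn at 0.5) against the separation of fragment midpoints in kb (log scale), 1 panel per cell type; blue, dark grey and red points are pairs of 2 well-read primers, light grey points pairs with a low primer, and filled and open points replicates 1 and 2. Well-read pairs have medians of 36005 to 88002 reads under 10 kb and 122 to 383 over 200 kb, and light grey points reach 3112 reads in the pro-B panel, against 36 in the MEF and 21 in the resting B panel.

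The decay slope, the exponent of separation in a quasi-Poisson model with an effect for each primer, was -2.60 and -2.20 in pro-B cells, -2.32 and -2.08 in the MEF and -1.80 and -1.92 in the resting B libraries. Means were -2.40 ± 0.28 (SD, n = 2), -2.20 ± 0.17 and -1.86 ± 0.08. Resting B cells decayed least steeply and did not overlap the others, while pro-B cells and MEF overlapped (exact permutation of 15 partitions, two-sided, p = 0.133). The pro-B minus MEF slope, -0.197, became 0.00318 without pro-B replicate 1. Model standard errors were 0.371 to 4.0 in this fit. In a fit on the 192 well-read pairs, added after the low primers were seen, they were 0.068 to 0.103, and the slopes were -2.62, -2.30, -2.32, -2.09, -1.81 and -1.92. In the fit that includes low primers, both restricting the pairs and redefining separation made the slopes shallower. With pairs over 20 kb only, they were -0.921 to -1.13, and from the nearest fragment ends in place of midpoints -0.895 to -1.14. Among well-read pairs over 20 kb they were -0.938 to -1.37.

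Igh pairs in the same range of separation had slopes of -1.62 and -1.61 in pro-B cells, -1.96 and -1.72 in the MEF and -1.40 and -1.42 in the resting B libraries. The desert slope was steeper in all 6 libraries, by a mean of -0.532 ± 0.235 (SD, n = 6; two-sided exact sign-flip permutation, p = 0.03125, the smallest 6 libraries allow). That sign was not settled by the data. With pairs over 20 kb only, the difference was 0.277 ± 0.168, positive in all 6 libraries (exact sign-flip permutation, p = 0.03125). With nearest ends it was 0.046 ± 0.110 (exact sign-flip permutation, p = 0.41), and with least squares of log2(reads + 1), where pairs with low primers weigh as much as others, 0.826 ± 0.351. Whether the desert decays faster or slower than the Igh locus thus depended on the pairs and the definition of separation.

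**Figure D4:**
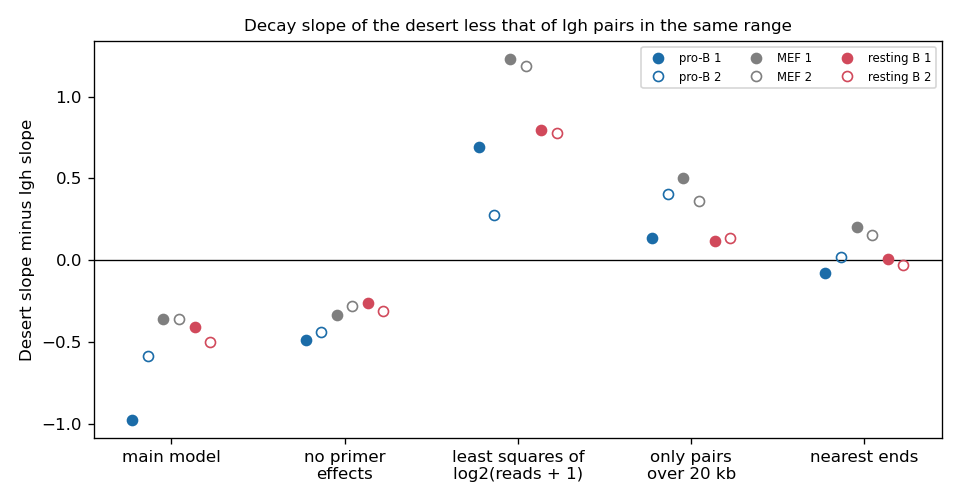
Decay slope of desert pairs minus that of Igh pairs in the same range of separation (vertical axis, no unit), for each library (circles, filled and open for replicates 1 and 2) and for 5 ways to fit the slope (horizontal axis). All 6 values lie below 0 in the main model and all 6 above 0 with pairs over 20 kb.

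Reads were also summed by separation and compared between cell types by edgeR's quasi-likelihood test with the scaling of the pair fit. In pro-B cells, sums over 50 kb were lower than in MEF. From 100 to 200 kb the desert had 11625 and 17061 reads in the pro-B libraries, 24804 and 34595 in the MEF and 23422 and 19249 in the resting B libraries, a log2 fold of -0.97 ± 0.15 (SE) for pro-B over MEF (edgeR with Benjamini-Hochberg over 10 bins of both regions, adjusted p = 0.00157). Over 200 kb the reads were 1217 and 1870, 3341 and 4198, and 2302 and 2273, a fold of -1.23 ± 0.17 (adjusted p = 0.00122). Pro-B libraries were below all MEF libraries in both bins. From 50 to 100 kb the fold was -0.69 ± 0.16 (edgeR, adjusted p = 0.00927), and under 25 kb it was -0.11 ± 0.42, which did not pass.

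Resting B cells over MEF had folds of -0.53 ± 0.15 from 100 to 200 kb and -0.79 ± 0.17 over 200 kb (edgeR, adjusted p = 0.0403 and 0.0178). Of the 10 bins of both regions, 30% passed in each of these comparisons, 3 desert bins for pro-B over MEF and 2 for resting B over MEF, and 0% passed for resting B over pro-B. The calls rested on the scaling. With total cis reads as library size, 1 desert bin passed for pro-B over MEF and 0 for resting B over MEF, and with gene desert reads 0 passed in either. Both desert calls of resting B over MEF were also reduced to 0 without either resting B replicate, and to 1 without any single MEF or pro-B library.

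To ask whether single contacts of the desert differ between cell types, the 220 desert pairs that reached 10 reads in 2 or more libraries (all 192 well-read pairs and 28 with a low primer) were tested in 1 fit with 11940 Igh pairs. For pro-B over MEF, 0 of 220 passed at an adjusted p of 0.05 (edgeR quasi-likelihood, Benjamini-Hochberg over all 12160 cis pairs), against a background of 0% of all cis pairs. An unadjusted p under 0.05 was found for 75 of the 220, or 34.1% against 9.61% of all cis pairs. Of these, 54 were among the 192 well-read pairs. The other 21 were among the 28 pairs with a low primer, which passed the filter chiefly through the pro-B libraries and are not used. Limma called 0 desert pairs (0.074% of all cis pairs), and DESeq2 called 36, or 16.6% against 3.11%. For resting B over MEF, 0 were higher and 1 was lower, against 0.329% and 0.37% of all cis pairs, or 0.699% in both directions (edgeR; 43 with an unadjusted p under 0.05, or 19.5% against 20.9% of all cis pairs; 27 called by DESeq2, or 12.4% against 14.3%). For resting B over pro-B, 12 were higher and 7 lower, of which 2 hold a low primer and entered the test only through the pro-B libraries, 8.64% of the desert pairs tested against 7.94% of all cis pairs (2.8% higher, 5.15% lower). For resting B over pro-B in this fit, the desert's share of calls was near that of all cis pairs. It was below the 16% of Igh pairs in the same range of separation. That closeness depended on the processing. With total cis reads as library size the share was 13.6% against 7.11% of all cis pairs, and with gene desert reads 15.9% against 7.24%. DESeq2 gave 36.8% against 24.6%.

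The median log2 fold of the 220 pairs was -0.83 for pro-B over MEF, against 0.02 over all cis pairs. For resting B over pro-B it was 0.37 against 0.02. For resting B over MEF it was -0.38 against -0.03, and it became 0.08 with gene desert reads as library size, so its sign was not settled. Scaling to gene desert reads in place of TMM moves all folds by 0.18, 0.52 and 0.35 for pro-B over MEF, resting B over MEF and resting B over pro-B, and scaling to total cis reads by -0.02, 0.27 and 0.29. The 28 pairs with a low primer passed the filter chiefly through the pro-B libraries, so their folds are not summarised. Over the 192 well-read pairs the medians were -1.02 for pro-B over MEF, -0.55 for resting B over MEF and 0.66 for resting B over pro-B.

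Leaving out 1 library leaves its cell type with 1, whose spread is then assumed to be that of the other groups, and the counts moved widely for the desert and for all cis pairs alike. Without pro-B replicate 1, 86 desert pairs passed for pro-B over MEF (41.5% of those tested against 32.4% of all cis pairs; edgeR). In that fit 54 passed for resting B over MEF (26.1% against 27.9%) and 96 for resting B over pro-B (46.4% against 47.1%). Without pro-B replicate 2 the counts were 3 (1.48% against 1.79%), 54 (26.6% against 28.5%) and 93 (45.8% against 32.8%). Without MEF replicate 1, or either resting B replicate, 0 desert pairs and 0% of all cis pairs passed in each comparison. Without MEF replicate 2, 2 desert pairs passed for pro-B over MEF (0.917% against 0.017%) and 0 in the others (0% of all cis pairs). The 13 folds of named pairs kept their direction in all these fits that gave them. They were picked by p from these same data, so this is no independent support. They include 2 pairs with a low primer, whose folds are not used below. With reads divided by the expectation of the distance and primer model, 0 desert pairs and 0% of all cis pairs passed in each comparison (limma; 14, 8 and 21 desert pairs with an unadjusted p under 0.05).

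Of the 12 pairs higher in resting B than in the pro-B libraries, 5 held FOR 34, 5 held REV 31, 3 held FOR 36 and 3 held REV 41, some pairs holding 2 of these. FOR 36 (chr5:133334157-133336709) with REV 31, 21.6 kb apart, had 357 and 570 reads in the pro-B libraries, 804 and 1167 in the MEF and 2716 and 2187 in the resting B libraries. Its log2 fold was 2.27 ± 0.38 (SE; edgeR, adjusted p = 0.0273). The 3 cell types did not overlap, with MEF between the others.

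FOR 36 with REV 17, 93.3 kb apart, had 125 and 83, 472 and 910, and 1149 and 848 reads, a fold of 3.04 ± 0.53 (edgeR, adjusted p = 0.0285). FOR 36 with REV 41 had 727 and 767, 3650 and 3376, and 5251 and 3987 reads, a fold of 2.45 ± 0.43 (adjusted p = 0.0286). FOR 39 with REV 31 had 301 and 402, 911 and 1015, and 1798 and 1336 reads, a fold of 2.00 ± 0.41 (adjusted p = 0.0361). In these pairs too pro-B libraries were lowest, in reads and after TMM scaling. MEF and resting B overlapped in reads for FOR 36 with REV 17, and after scaling for FOR 36 with REV 41.

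FOR 50 (chr5:133381614-133382754) with REV 31, 68.4 kb apart, had 12 and 2 reads in the pro-B libraries, 137 and 236 in the MEF and 558 and 444 in the resting B libraries, a fold of 5.86 ± 1.02 (edgeR, adjusted p = 0.0286). FOR 34 with REV 17 had 0 and 1, 249 and 21, and 402 and 332 reads (edgeR, adjusted p = 0.036). With 1 read in pro-B cells, its scaled ratio was 663 with a counting interval of 119 to 26221, and FOR 34 was low with all its partners in the pro-B libraries. Without the pairs of FOR 34, 7 desert pairs passed as higher and 7 as lower.

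Of the 7 lower pairs, FOR 61 (chr5:133429793-133437043) with REV 38, 91.5 kb apart, was the only desert pair past the threshold in 2 comparisons. It had 657 and 886 reads in the pro-B libraries, 813 and 1248 in the MEF and 151 and 138 in the resting B libraries. Its fold was -2.56 ± 0.41 for resting B over pro-B and -2.87 ± 0.41 for resting B over MEF (edgeR, adjusted p = 0.0251 and 0.0441). The resting B libraries serve in both, so the 2 results are not independent. Neither call held with total cis reads as library size (edgeR, adjusted p = 0.0531 and 0.0732) or with gene desert reads (0.0773 and 0.143), at folds of -2.29 to -2.64.

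FOR 27 with REV 20 (chr5:133249001-133261953) had 1989 and 1830 reads in the pro-B libraries, 1487 and 1671 in the MEF and 388 and 353 in the resting B libraries, a fold of -2.55 ± 0.42 (edgeR, adjusted p = 0.0271). FOR 39 with REV 20 had 286 and 282, 244 and 271, and 26 and 16 reads, a fold of -3.94 ± 0.69 (adjusted p = 0.0285). FOR 55 (chr5:133393576-133396322) with REV 38 had 976 and 482, 625 and 1366, and 89 and 59 reads, a fold of -3.56 ± 0.63 (adjusted p = 0.0291). In these and in FOR 61 with REV 38 the resting B libraries lay below all 4 others.

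The other 2 named pairs join a low primer to its neighbour. FOR 50 with REV 49 had 128 and 2308 reads in the pro-B libraries, 0 and 5 in the MEF and 3 and 8 in the resting B libraries. FOR 16 with REV 14 had 177 and 2240, 0 and 0, and 0 and 6 reads. Both reached 10 reads in the pro-B libraries only, so they entered the test through the group where they were high, and their folds and p-values are not used. Most of their reads were those of pro-B replicate 2.

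**Figure D5:**
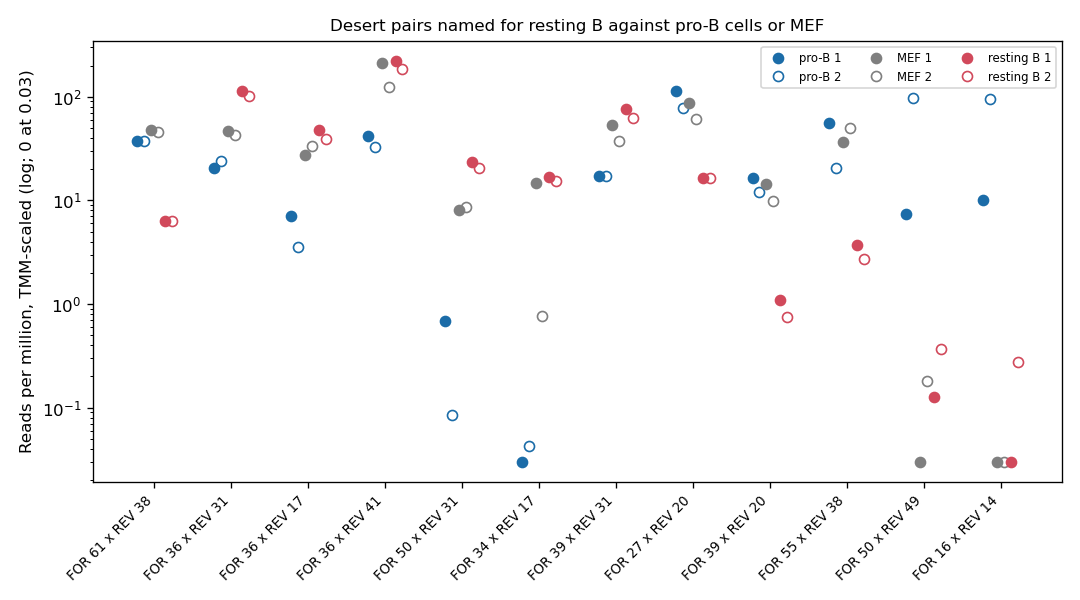
TMM-scaled CPM (log scale, 0 drawn at 0.03) of the 12 named desert pairs in each library; colours are cell types and filled and open circles replicates 1 and 2. Resting B libraries are lowest for the pairs with REV 38 and REV 20, and pro-B libraries are lowest for those with REV 31, REV 17 and REV 41.

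The folds of pairs went with their fragments. Pair folds in this paragraph are differences of mean log2(CPM + 1), not edgeR's folds, and are smaller where reads are few. For FOR 34 in resting B over pro-B the median was 4.27, against 6.45 by edgeR. For resting B over pro-B, all 16 well-read partners of REV 31, of REV 17, of REV 22 and of REV 41 had a log2 fold above 0, with medians of 1.81, 1.30, 1.79 and 1.51, and all 12 partners of FOR 34, FOR 47 and FOR 59 did. REV 20 had 4 of 16 above 0, with a median of -1.30, under TMM scaling as in the pair fit. Each fragment's fold in reads with the Igh locus left out its strongest Igh partner and was not on the TMM scale. Across the 28 well-read fragments, the median pair fold correlated with this Igh fold at Pearson's r = 0.88, or 0.81 without FOR 34. For resting B over MEF r was 0.87, or 0.83 without FOR 34, and for pro-B over MEF 0.75, or 0.60 without it, all given as descriptions over fragments that share libraries. Without the strongest Igh partner, REV 20, for instance, had a fold of -1.99 with Igh fragments and FOR 34 one of 3.43. The part of fragment recovery or primer strength in the pair results was not tested beyond this and the fit on expected reads above.

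Pairs above the distance and primer model in both replicates, the replicate rule that the series text gives for loops, were then counted. The count depended on the pairs fitted. At a standardised residual of 2 or more in each of the 2 libraries, 0 of 600 pairs passed in the pro-B libraries, 1 in the MEF and 0 in resting B cells. Igh pairs in the same range passed at 1.24%, 0.619% and 3.44%. The MEF pair was FOR 21 with REV 56, both low primers, with 1 read in each MEF library, which the model expected to have almost none. Residuals were scaled by the spread of the whole fit, which pairs with almost no expected reads enter. These counts therefore cannot show how rare such pairs are in the desert.

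With the model fitted on the 192 well-read pairs alone, 5 pairs (2.60%) passed in each cell type. That share was above the Igh share in pro-B cells and MEF and below it in resting B cells. FOR 27 with REV 41, 51.2 kb apart, and FOR 32 (chr5:133314344-133319131) with REV 41, 34.5 kb apart, passed in all 3. FOR 27 with REV 41 had 909 and 2025 reads in the pro-B libraries, 2413 and 2180 in the MEF and 4709 and 3576 in the resting B libraries, which were 3.16 to 10.9 times the expected reads. FOR 32 with REV 41 had 545 and 570, 1271 and 940, and 3207 and 2294 reads, 7.0 to 13.0 times the expected. FOR 36 with REV 26 passed in pro-B cells and MEF, and FOR 34 with REV 33 in MEF and resting B cells. Of the 9 pairs that passed anywhere, 6 were over 10 kb apart. These are descriptions from a fit chosen after the data were seen.

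Insulation, the average of log2 observed over expected reads for pairs that cross a boundary with both fragments within 100 kb of it, had its lowest value at the ends of the desert in every library. The minimum lay between FOR 5 and REV 6 in pro-B replicate 1 (-0.46) and MEF replicate 2 (-0.38), and between FOR 8 and REV 10 in MEF replicate 1 (-0.52) and resting B replicate 1 (-0.42). It lay between FOR 67 and REV 69 in pro-B replicate 2 (-1.90) and between REV 69 and FOR 70 in resting B replicate 2 (-0.40). Every score of pro-B replicate 2 was below 0, the highest at -0.30, against highest scores of 0.16 to 0.52 in the other libraries. Its -1.90 is therefore not comparable in depth with the other minima. None of the pairs crossing these boundaries had 2 well-read primers. The place moved with the window: within 50 kb the minimum was between FOR 67 and REV 69 in resting B replicate 1 (-0.54) and between FOR 5 and REV 6 in resting B replicate 2 (-0.55), and within 150 kb between REV 6 and FOR 8 (-0.25) and between REV 69 and FOR 70 (-0.21). Over well-read pairs alone, the minimum of both MEF and both resting B libraries lay between REV 38 and FOR 39, at position 133346647, with scores of -0.09, -0.07, -0.32 and -0.34 over 77 pairs. The pro-B libraries had theirs between FOR 27 and REV 29 (-0.14) and between REV 41 and FOR 47 (-0.96), so the replicates shared no minimum. Scores of pro-B replicate 2 were again all below 0, the highest at -0.27.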

How the data were processed

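Values are raw counts of valid pairs for each combination of primers, per the file headers; combinations not listed in the deposited files were taken as 0. Novoalign and mm9 are named per the submitters' processing notes; not given in the sources used here is the aligner version. Headers record 1 flow cell with 6 lanes. The members, lists and tests were chosen with earlier results of these data known. Cis pairs that reached 10 reads in 2 or more libraries entered edgeR 4.0.16 (R 4.3.3): TMM over all cis pairs, quasi-likelihood fit of all 6 libraries, cell type as the only term, Benjamini-Hochberg over 12160 pairs, threshold 0.05. SE is the log2 fold over the square root of F. Distance models were quasi-Poisson per library with primer effects and, for residuals, a spline of the log distance (3 degrees of freedom, and 4 for Igh). Named pairs were, per comparison, up to 6 higher and 6 lower by p, past the threshold and with groups not overlapping, the 5 most read, those above the distance model in all 3 or, failing that, 2 cell types, the 3 most and least read primers of each side, and insulation minima. On simulated counts, edgeR recovered 6%, 11% and 7% of 4-fold and 47%, 53% and 56% of 16-fold changes for pro-B over MEF, resting B over MEF and resting B over pro-B, with 4, 1 and 2 false calls. Alternatives (scaling, DESeq2 1.42.0, limma 3.58.1 on log2 CPM, filters, replicates left out and the pairs or primers counted) are given in the closing section.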

Additional observations from a re-analysis of the deposited data

Results flagged for a closer look

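Reads joining the desert to the Igh locus were used above only as totals per primer. Among them, reverse fragment 31 of the desert with Igh forward fragment 817 had 73138 reads in pro-B replicate 1, 251736 in pro-B replicate 2, 585423 and 352634 in the MEF libraries and 357345 and 386197 in the resting B libraries, well above the 3 reads that a count of 0 allows. These made up 91.6% to 98.8% of all Igh reads of REV 31, and REV 31 took 44.9% to 84.2% of all reads between the chromosomes. The level was high in all 6 libraries, and its source was not tested.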

How the results depend on the processing

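Desert pairs called for pro-B over MEF, resting B over MEF and resting B over pro-B numbered 0, 1 and 30 with total cis reads, 3, 0 and 35 with gene desert reads, 36, 27 and 81 with DESeq2, 0, 2 and 22 without a filter, 0, 3 and 21 at 50 reads or more, 0, 56 and 0 with only the 4 libraries compared, 0, 4 and 25 with the separation offset, and 0, 9 and 60 with limma. For resting B over pro-B, the desert's share against that of all cis pairs was 13.6% against 7.11% with total cis reads. It was 15.9% against 7.24% with gene desert reads, 36.8% against 24.6% with DESeq2 and 27.3% against 21.3% with limma. Shares were 4.81% against 7.64% without a filter, 10.9% against 11.9% at 50 reads or more and 11.4% against 9.71% with the separation offset. The 56 for resting B over MEF were 28.3% against 28.4%. Added after seeing the data, they were 0, 2 and 18 with well-read pairs only, 0, 2 and 14 without FOR 34, and 0, 0 and 0 on observed over expected reads. The 18 and 14 were 9.38% against 8.19% and 6.73% against 7.94% of all cis pairs. Leaving out 1 replicate gave 0 to 86, 0 to 54 and 0 to 96. With the replicate block (deviations of same-numbered libraries correlated at -0.03 to 0.09 over all cis pairs and 0.05 to 0.19 over desert pairs, and neither labels nor data tie the numbers), counts of desert pairs were 0, 0 and 5, and desert bins 4, 2 and 1. The 5 pairs were 2.27% of desert pairs tested, against 2.27% of all cis pairs. Desert bins were 1, 0 and 0 with total cis reads, 0, 0 and 0 with gene desert reads, 2, 0 and 0 with mean log2 CPM, and 2 to 4, 0 to 1 and 0 to 1 without 1 replicate. The 13 named folds kept their direction in every fit that gave them. They were picked by p from these same data, so this is no independent support. They include the 2 pairs with a low primer whose folds are not used. Of the 13, 11 passed with total cis reads, 8 with gene desert reads and 5 with the replicate block. With the 4 libraries compared 1 passed, and 13 did with DESeq2 and with limma. The mean share of cis reads, 5.21%, was 0.865% without the 10 top pairs and 1.39% over 20 kb; leaving out 1 replicate gave 5.03% to 5.43%. Share differences reversed for resting B over pro-B, to 0.159 and 0.738 points in those settings. Left-out replicates gave -1.62 to 0.350 for pro-B over MEF, -1.16 to -0.683 for resting B over MEF and -1.27 to 0.699 for resting B over pro-B. The mean slope, -2.15, was -1.49 without primer effects, -0.261 by least squares, -1.04 over 20 kb and -1.01 with nearest ends, and -2.22 to -2.06 without 1 replicate. Slope differences reversed for pro-B over MEF over 20 kb (0.047), and for resting B over MEF without primer effects (-0.038) and by least squares (-0.12). Left-out replicates gave -0.396 to 0.00318, 0.223 to 0.458 and 0.338 to 0.737. Over all desert pairs, desert minus Igh slope reversed to 0.826 by least squares, 0.277 over 20 kb and 0.046 with nearest ends. By least squares on well-read pairs alone the desert slope was steeper in each library. Without 1 replicate the difference was -0.566 to -0.443, where the exact permutation cannot pass. Pairs above the distance model summed to 1 and to 15 with the well-read model. The causes were not tested. Changes of 4-fold or less in single pairs were mostly out of reach (6% to 11% of 4-fold changes recovered on simulated counts). Even 16-fold changes were recovered at only 47% to 56%. Counts on low primers, often 0, limit any statement on the desert's ends.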
